A study of Mus musculus with 4 samples.

Results

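Basal keratinocytes of mouse gingiva, the gum around the teeth, that carried RNA of the chemokine gene Cxcl14 are described here from single-cell RNA counts. They were chosen by their own counts: at least 200 genes, at most 20% mitochondrial UMIs (unique molecular identifiers, each standing for 1 captured RNA molecule), fewer than 10000 UMIs, at least 5 UMIs of the basal keratin gene Krt14 and at least 1 of Cxcl14. Fewer than 5 UMIs of Krt1, Krt10 and Krt76 together, fewer than 10 of Krt4 and Krt13 together and fewer than 2 of Tmem176a and Tmem176b were allowed, as were fewer than 3 detected genes of a list of 8 mitotic genes and fewer than 3 detected Hist1h histone genes. The rule took 648 of the 8295 deposited cell barcodes. Of these, 130 came from the disease plus metformin library, 193 from the disease library, 241 from the metformin library and 84 from the healthy library. Since Krt14, Cxcl14, the differentiation keratins and the mitotic and histone genes made the choice, their values describe it and are not results.

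The study addressed what metformin does to gene expression in the gingiva, with the prevention of periodontal disease in view. There were 4 groups with 1 droplet library each: diseased gingiva treated with metformin, diseased gingiva, gingiva with metformin treatment, and healthy gingiva. Metformin is a glucose-lowering drug used in diabetes. Strain, age, number of mice per library, dose and the way disease was brought about are not stated in the labels. With 1 library per group there was no replicate check and no test, and every interval given covers counting error only. A gene was called higher or lower between libraries at 1.5-fold or more.

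Keratinocytes of the basal layer rest on the basement membrane, make the keratins Krt5 and Krt14, divide, and supply the cells that move up and differentiate into the layers above. Hemidesmosomes tie them to the matrix, and desmosomes tie them to one another. Cxcl14 is a chemokine made constitutively by epithelia, with known antimicrobial activity, and it is often lost in inflamed or transformed epithelium.

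The promoter windows of 4 genes are shown because these genes differed between these cells and Krt14-positive keratinocytes with no Cxcl14 UMI. Cxcl14 did so by the rule, Gpha2 by its higher level, and Odam and BC037156 by their near absence. Each window runs from 250 bases before to 50 bases after the start of the gene in RefSeq on GRCm38.p6, and is given 5′ to 3′ on the strand of the gene. Capitals mark GGGCGG, the core of a GC box, and TATAAA, the core of a TATA box, each searched on both strands, with overlapping matches counted. The Cxcl14 window lies at chr13:56296502-56296801 on the minus strand, the Gpha2 window at chr19:6226151-6226450 on the plus strand, the Odam window at chr5:87884760-87885059 on the plus strand and the BC037156 window at chr5:87908529-87908828 on the plus strand. The genes themselves span chr13:56288643-56296551, chr19:6226380-6227768, chr5:87885029-87894174 and chr5:87908779-87914171 in the GENCODE annotation of GRCm38.
Cxcl14: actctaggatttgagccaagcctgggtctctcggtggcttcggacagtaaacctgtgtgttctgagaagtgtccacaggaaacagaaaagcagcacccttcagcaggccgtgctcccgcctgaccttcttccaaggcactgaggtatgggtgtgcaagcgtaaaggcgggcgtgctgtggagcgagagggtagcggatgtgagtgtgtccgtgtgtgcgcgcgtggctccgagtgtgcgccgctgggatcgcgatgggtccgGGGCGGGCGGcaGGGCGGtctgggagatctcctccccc
Gpha2: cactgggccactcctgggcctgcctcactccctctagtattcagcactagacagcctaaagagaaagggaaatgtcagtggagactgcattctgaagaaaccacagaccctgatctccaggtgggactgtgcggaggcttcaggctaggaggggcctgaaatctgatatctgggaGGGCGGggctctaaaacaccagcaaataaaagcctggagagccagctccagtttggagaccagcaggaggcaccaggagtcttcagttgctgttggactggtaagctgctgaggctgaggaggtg
Odam: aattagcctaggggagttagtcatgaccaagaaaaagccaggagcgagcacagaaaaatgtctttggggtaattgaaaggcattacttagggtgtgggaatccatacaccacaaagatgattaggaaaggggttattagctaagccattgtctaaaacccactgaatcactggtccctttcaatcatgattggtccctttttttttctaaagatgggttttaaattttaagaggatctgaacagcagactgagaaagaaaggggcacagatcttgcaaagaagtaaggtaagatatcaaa
BC037156: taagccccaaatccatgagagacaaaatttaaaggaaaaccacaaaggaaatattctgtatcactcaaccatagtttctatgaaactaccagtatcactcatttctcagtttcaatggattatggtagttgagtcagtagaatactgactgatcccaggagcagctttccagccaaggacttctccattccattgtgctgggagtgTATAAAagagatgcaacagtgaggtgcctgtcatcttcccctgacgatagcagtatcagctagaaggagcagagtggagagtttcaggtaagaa

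The Cxcl14 window held GGGCGG 3 times, of which the first pair overlap, and its GC content was 62.7%. The Gpha2 window held GGGCGG 1 time at a GC content of 55.3%. The BC037156 window held TATAAA 1 time at a GC content of 42%, and the Odam window held neither motif at 39.7%. Of 32851 RefSeq promoter windows of the same length, 11714 (35.7%) held GGGCGG and 4473 (13.6%) held TATAAA, and the median GC content was 52.7%. A match is a description of the letters and not of a bound site. Odam, which encodes a protein of the junctional epithelium that seals gum to tooth, and BC037156, a long intergenic non-coding RNA gene, are neighbours on chromosome 5 with 14605 bases between them.

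Depth was lowest in the healthy members. The members' median UMI count was 1650.5 in the disease plus metformin library, 1438 in the disease library, 1988 in the metformin library and 1205 in the healthy library, while the median over all 7134 barcodes that passed the gene and mitochondrial limits lay between 1715 and 1951. Whole libraries held from 12507787 to 22333858 UMIs. Of all barcode sequences, 8 occurred in more than 1 library, 3 of these were a member in 1 library, and none was a member in both. RNA quality differed among the cells: 58.5% of disease plus metformin members, 35.2% of disease members, 48.1% of metformin members and 51.2% of healthy members had no mitochondrial UMI at all, and between 44.8% and 61.5% had no UMI of Malat1, a nuclear RNA. Members with both kinds of UMI numbered 23 in disease plus metformin, 56 in disease, 82 in metformin and 20 in healthy gingiva.

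RNA of salivary gland cells was present in these barcodes and moved with the groups. The 16 gland markers together stood at 9551 UMIs per 1000000 of the members' UMIs (CPM) in disease plus metformin, 1101 CPM in disease, 20026 CPM in metformin and 3274 CPM in healthy gingiva, with 12 of the markers detected in disease plus metformin, 11 in disease, 13 in metformin and 10 in healthy gingiva. Over all kept barcodes the same markers took 9.70% in disease plus metformin, 3.62% in disease, 4.58% in metformin and 11.2% of UMIs in healthy gingiva. The part of free gland RNA in the gland gene values below was not tested. Leukocyte markers were at 0 UMIs in 3 libraries and at 2 UMIs in the metformin library, Ptprc was at 0 in all 4, and melanocyte markers were at 0 in all. Endothelial markers gave between 1 and 7 UMIs per library, and Pecam1 and Cdh5 were at 0 throughout. Pericyte and muscle markers gave 3 UMIs in disease plus metformin, 79 in disease, 354 in metformin and 9 in healthy members, and a single barcode held 58.2% of those in disease and 93.2% of those in metformin members. Of that list, Acta2 was called higher in disease and in metformin members than in healthy ones, and Tagln in metformin members. Erythrocyte genes stood out in the disease members with 8718 UMIs, against 34 in disease plus metformin, 232 in metformin and 21 in healthy gingiva. A single barcode held 69.4% of those 8718 UMIs, and without it the disease level was 7089 CPM, against 22745 CPM with it.

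Markers of the label that the rule did not use were present. Krt5, the keratin partner of Krt14 that the rule did not use, was found in 98.5% of disease plus metformin members, 96.4% of disease members, 98.3% of metformin members and 95.2% of healthy members. In endothelial barcodes of the same libraries, which should lack it, the shares were 9.52% in disease plus metformin, 9.23% in disease, 11.4% in metformin and 16.7% in healthy gingiva, at median depths from 2335 to 4261 UMIs. Igfbp2, which encodes a secreted binding protein for insulin-like growth factors, was found in 80.8% in disease plus metformin, 88.1% in disease, 80.1% in metformin and 76.2% of members in healthy gingiva, against 0% in disease plus metformin, 3.08% in disease, 0% in metformin and 8.33% of those endothelial barcodes in healthy gingiva. Serpinb2, an intracellular serine protease inhibitor, was found in 31.5% in disease plus metformin, 30.1% in disease, 31.1% in metformin and 26.2% of members in healthy gingiva, against 0% in 3 of the endothelial sets and 4.17% in the healthy one. All 5 markers that define the label were therefore present in every library, and 3 of them (Krt5, Igfbp2 and Serpinb2) lay outside the rule. These 3 were also present in Krt14-positive keratinocytes with no Cxcl14 UMI. There Krt5 stood at 4296 CPM in disease plus metformin, 4314 in disease, 3971 in metformin and 4559 in healthy gingiva. In the same order Igfbp2 stood at 1003, 1405, 862 and 1221 CPM and Serpinb2 at 163, 194, 107 and 171 CPM. None of the 3 was 1.5-fold higher in members than in that set in all 4 libraries. Members were also thinned to 1000 UMIs. Shallower ones were left out, 37 in disease plus metformin, 57 in disease, 50 in metformin and 32 in healthy gingiva. Of the rest, Igfbp2 stayed in 73.1% in disease plus metformin, 77.9% in disease, 65.4% in metformin and 73.1% in healthy gingiva.

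By level, the chosen genes and the independent markers were even over the 4 libraries. Krt14 stood at 19621 CPM in disease plus metformin, 18226 in disease, 17073 in metformin and 17186 CPM in healthy members. Krt5 stood at 4927 in disease plus metformin, 5163 in disease, 5489 in metformin and 5890 CPM in healthy gingiva, and Serpinb2 at 251 in disease plus metformin, 235 in disease, 242 in metformin and 208 CPM in healthy gingiva. None of these was 1.5-fold apart between any of the libraries. Cxcl14 itself was at 1036 in disease plus metformin, 1135 in disease, 815 in metformin and 1101 CPM in healthy gingiva, and Igfbp2 at 1858 in disease plus metformin, 1803 in disease, 1292 in metformin and 1772 CPM in healthy gingiva, both lowest in the metformin library. Krt15, a basal keratin associated with resting progenitors, was less even, at 849 CPM in disease plus metformin, 511 in disease, 990 in metformin and 651 CPM in healthy members.

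A gene seldom counted as epithelial was among the steadiest. Dcn, which encodes the small matrix proteoglycan decorin, stood at 1523 CPM in disease plus metformin, 1542 in disease, 1394 in metformin and 1495 CPM in healthy members, and was found in 71.5% in disease plus metformin, 64.8% in disease, 67.2% in metformin and 63.1% in healthy members. It was singled out after its values were seen. Of the 7 fibroblast markers, Dcn included, 2 were detected in disease plus metformin, 6 in disease, 5 in metformin and 3 in healthy members. Together they gave 383 UMIs in disease plus metformin, 607 in disease, 889 in metformin and 223 in healthy members, of which Dcn gave 382 in disease plus metformin, 591 in disease, 859 in metformin and 216 in healthy members. Pdgfra was at 0 in all 4 libraries and Col1a1 gave 0 in disease plus metformin, 2 in disease, 4 in metformin and 0 UMIs in healthy gingiva. In endothelial barcodes Dcn was found in 0% in disease plus metformin, 1.54% in disease, 8.57% in metformin and 0% in healthy gingiva.

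**Figure D1:**
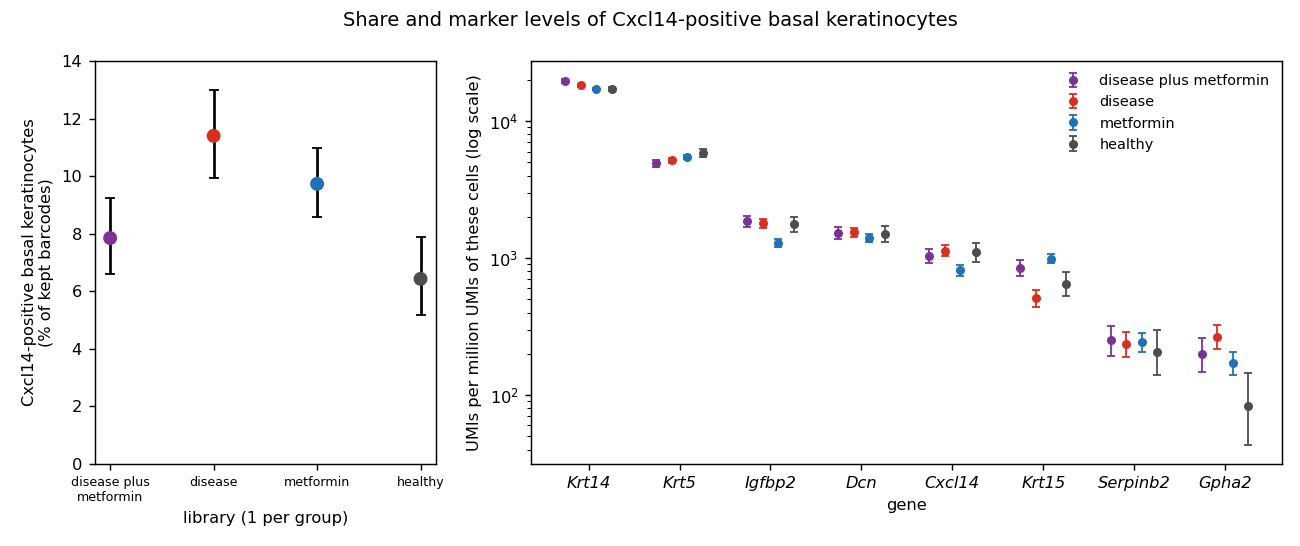
Left, members as a percentage of kept barcodes in each library with exact 95% binomial intervals; right, level of 8 genes in the members (CPM, log scale) with exact 95% Poisson intervals. The disease library has the highest share at 11.4%, Krt14, Krt5 and Dcn sit at almost the same height in all 4 libraries, and Gpha2 is lowest in the healthy library at 83.1 CPM.

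Cxcl14-positive basal cells took 7.85% of kept disease plus metformin barcodes (exact 95% interval 6.60% to 9.25%), 11.4% of disease barcodes (9.92% to 13.0%), 9.73% of metformin barcodes (8.59% to 10.96%) and 6.43% of healthy barcodes (5.16% to 7.90%). By this denominator the disease share lay above the disease plus metformin and healthy shares with no overlap of the intervals. The order was the same after thinning to 1000 UMIs, at 5.18% in disease plus metformin, 8.10% in disease, 6.81% in metformin and 4.25% in healthy gingiva. Barcodes below 1000 UMIs, from 29.2% to 33.4% of those kept in a library, were left out of the thinning. The disease and disease plus metformin intervals then overlapped, at 6.61% to 9.79% and 3.96% to 6.65%. Of barcodes with enough Krt14 alone, members made up 17.7% in disease plus metformin, 19.4% in disease, 15.5% in metformin and 12.9% in healthy gingiva. Disease was again highest and healthy lowest, but disease plus metformin lay above metformin. Here too the disease and disease plus metformin intervals overlapped, at 17.0% to 22.0% and 15.0% to 20.7%. How many cells of each kind survived dissociation cannot be told apart from how many the tissue held.

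Of the limits of the rule, that on Cxcl14 was met at its minimum by 349 of 648 members, with 1 UMI, while 299 had 2 or more, up to 16. The median member had 31 Krt14 UMIs in disease plus metformin, 25 in disease, 30 in metformin and 21.5 in healthy gingiva, while 12 members lay at the limit of 5 and 9 otherwise eligible barcodes just outside it at 4. For Krt1, Krt10 and Krt76 together, 454 members had no UMI, 12 were just inside the limit at 4, and 10 otherwise eligible barcodes were just outside at 5. A further 1288 barcodes met every other part of the rule with no Cxcl14 UMI, and these had lower median depths of 818 to 1080 UMIs.

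The Cxcl14-positive cells were set against those 1288 Krt14-positive, Cxcl14-negative barcodes (254 in disease plus metformin, 316 in disease, 486 in metformin and 232 in healthy gingiva). Gpha2, which encodes a glycoprotein hormone alpha subunit and is known as a marker of resting limbal epithelial stem cells in the mouse cornea, led the genes that were higher. It stood at 199 CPM in members and 51.4 in Cxcl14-negative barcodes in disease plus metformin, 266 and 41.4 in disease, 170 and 43.0 in metformin, and 83.1 and 26.9 CPM in healthy gingiva. The log2 ratios were 1.96 in disease plus metformin, 2.68 in disease, 1.99 in metformin and 1.63 in healthy gingiva. The members were higher in each library, and the gene was present in a minority of them, with 13.1% in disease plus metformin, 15.5% in disease, 14.1% in metformin and 7.14% in healthy gingiva. In endothelial barcodes it was found in 0% in disease plus metformin, 1.54% in disease, 0% in metformin and 0% in healthy gingiva.

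Few genes differed this way in all 4 libraries. Of 1792 genes measured, 12 (0.67%) were at least 1.5-fold higher in members everywhere and 43 (2.4%) lower everywhere, Cxcl14 itself among the 12. Tfap2b, a transcription factor of the AP-2 family, was at 171 CPM in members and 57.4 in the other set in disease plus metformin, 188 and 69.9 in disease, 154 and 63.8 in metformin, and 318 and 104 CPM in healthy gingiva. Hpgd, the enzyme that inactivates prostaglandins, was at 478 CPM in members and 199 in the other set in disease plus metformin, 603 and 295 in disease, 464 and 169 in metformin, and 658 and 282 CPM in healthy gingiva. Ptn, which encodes the growth factor pleiotrophin, was at 375 CPM in members and 221 in the other set in disease plus metformin, 368 and 202 in disease, 282 and 173 in metformin, and 374 and 165 CPM in healthy gingiva. Dcn was also among them, at 1.40, 1.49, 1.59 and 1.88 on the log2 scale. Both sets of barcodes came from the same libraries, so these ratios hold within each library.

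The 43 genes lower in Cxcl14-positive cells included the lincRNA gene BC037156, wound keratins, and genes of junctions and differentiation, besides others such as Klf5, mt-Atp8 and Gsta4. BC037156 stood at 7.97 CPM (2 UMIs) in disease plus metformin members, 73.0 in disease, 47.1 in metformin and 48.5 CPM in healthy members, against 894 in disease plus metformin, 3983 in disease, 3670 in metformin and 6157 CPM in healthy Cxcl14-negative barcodes. Its neighbour Odam had 0 in disease plus metformin, 0 in disease, 3 in metformin and 1 UMI in healthy members, against 26 in disease plus metformin, 101 in disease, 66 in metformin and 51 UMIs in healthy Cxcl14-negative barcodes. Krt16, a keratin of wounded and hyperproliferative epithelium, was at 7.97 CPM in members and 767 in the other set in disease plus metformin, 54.8 and 929 in disease, 105 and 785 in metformin, and 76.1 and 820 CPM in healthy gingiva. Krt6b, its type II partner, gave 3.99 CPM in members and 217 in the other set in disease plus metformin, 7.83 and 336 in disease, 22.7 and 308 in metformin, and 13.8 and 1194 CPM in healthy gingiva, with Krt6a and Krt6b so alike in sequence that reads may be split between them. For BC037156, Krt16 and Krt6b every library had members below the other set at log2 ratios of -2.90 or lower.

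By list, 3 of 4 measured wound keratins (Krt6a, Krt6b and Krt16) were lower in members in all 4 libraries, 3 of 11 desmosome and adherens genes (Dsg3, Dsc2 and Dsp), and 3 of 7 differentiation genes outside the rule (Sbsn, Lypd3 and Sprr1a). No gene of these 3 lists was higher in all 4. All 4 wound keratins of the list were measured. In the other 2 lists a gene could reach the UMI minimum through the set where it was high, so those counts follow in part from that. Against the background of 0.67% higher and 2.4% lower, 0 of 3 basal keratins, 0 of 36 nuclear complex I subunits and 0 of 7 hemidesmosome genes passed in either direction. Ly6d, a surface protein of the Ly6 family, was at 259 CPM in members and 1625 in the other set in disease plus metformin, 438 and 1366 in disease, 445 and 1330 in metformin, and 637 and 1698 CPM in healthy gingiva. Muc5b, a gel-forming mucin gene that is not among the 16 gland markers, was lower as well, at 3133 CPM in members and 9546 in the other set in disease plus metformin, 712 and 1299 in disease, 5894 and 16125 in metformin, and 2118 and 4788 CPM in healthy gingiva, and gland markers took 0.955% in disease plus metformin, 0.110% in disease, 2.00% in metformin and 0.327% of the members' UMIs in healthy gingiva, against 3.93% in disease plus metformin, 0.207% in disease, 6.92% in metformin and 1.61% in healthy Cxcl14-negative barcodes. The part of gland RNA in that was not tested.

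Depth differed between the 2 sets, so both were also taken at 1000 to 3000 UMIs only, a range chosen after the data were seen. Of 745 genes then measured, 5 (0.671%) were higher in members in all 4 libraries: Cck, Cxcl14, Dcn, Hpgd and Ptn. The 7 (0.94%) that were lower were BC037156, Krt16, Krt6b, Rab25, Sbsn, Tst and mt-Co1. Gpha2 and Odam had too few UMIs there to be measured.

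**Figure D2:**
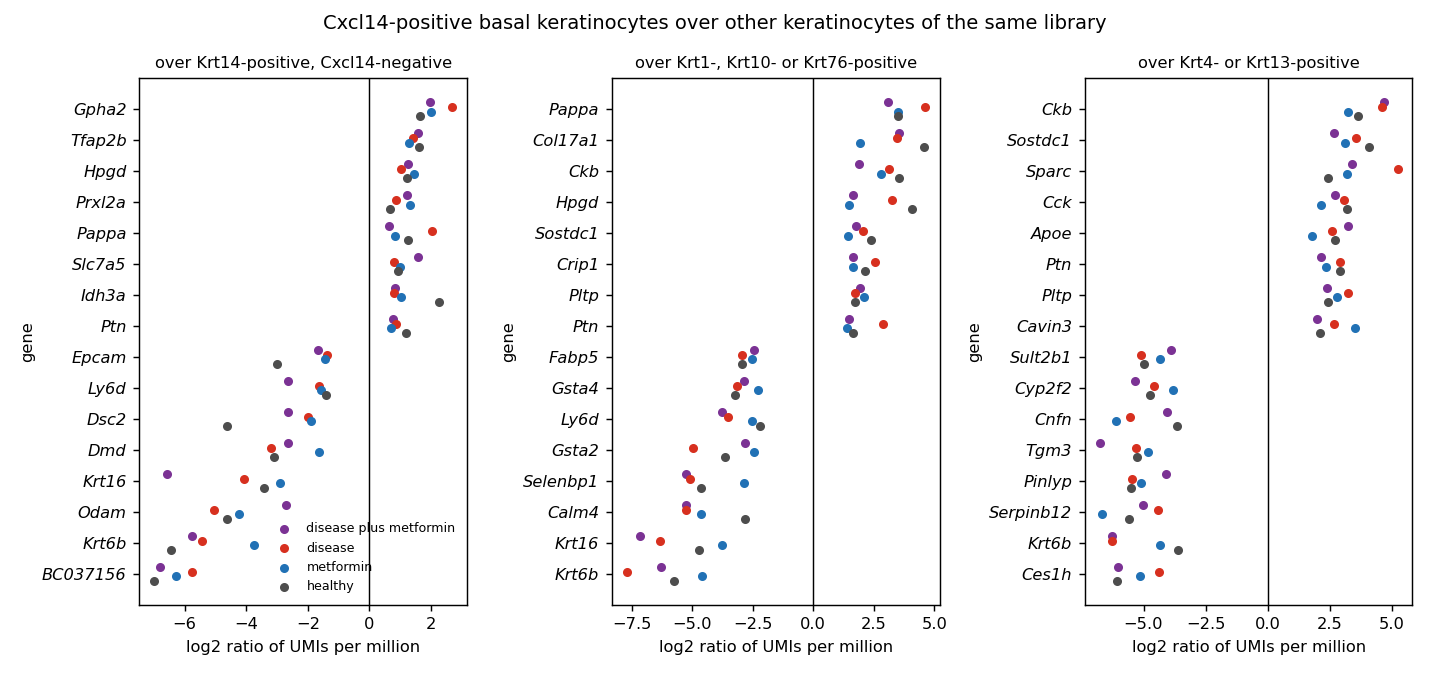
Log2 ratio of CPM in Cxcl14-positive basal cells over 3 other keratinocyte sets of the same library, for the 8 highest and 8 lowest genes of each; 1 point per library, with a count of 0 set to 3 UMIs. Genes were ranked by their weakest ratio over the 4 libraries, so all 4 points lie on the same side of 0 by that choice. In the left panel BC037156 lies between -6.99 and -5.77 and Gpha2 between 1.63 and 2.68.

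Some of these genes were followed by Cxcl14 count, a gene of the rule, so that the step between 0 and 1 or more UMIs restates how they were chosen. Gpha2 was at 51.4, 143 and 250 CPM in disease plus metformin barcodes with 0, 1 and 2 or more Cxcl14 UMIs, at 41.4, 137 and 353 CPM in disease, at 43.0, 102 and 222 CPM in metformin and at 26.9, 39.6 and 131 CPM in healthy gingiva. Hpgd took the same direction, with 199, 371 and 575 CPM in disease plus metformin, 295, 417 and 727 in disease, 169, 340 and 557 in metformin, and 282, 567 and 757 CPM in healthy gingiva. Ly6d ran the other way, at 1625, 388 and 144 CPM in disease plus metformin, 1366, 677 and 279 in disease, 1330, 503 and 401 in metformin, and 1698, 923 and 320 CPM in healthy gingiva. Tfap2b and Ptn were not graded in every library, with Tfap2b at 57.4, 185 and 159 CPM and Ptn at 221, 421 and 333 CPM in disease plus metformin, and Tfap2b at 63.8, 182 and 134 CPM in metformin gingiva. BC037156 was high at 0 Cxcl14 UMIs alone, with 6157 CPM there, 79.1 CPM at 1 and 14.6 CPM at 2 or more in healthy gingiva. Igfbp2 was highest at 2 or more UMIs in disease plus metformin and metformin gingiva but not in disease, at 1405, 1829 and 1785 CPM, nor in healthy gingiva, at 1221, 1846 and 1690 CPM. Barcodes with more Cxcl14 UMIs were also deeper, with median UMI counts of 818, 1190 and 1323 in healthy and 1080, 1479 and 2955 in metformin gingiva.

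**Figure D3:**
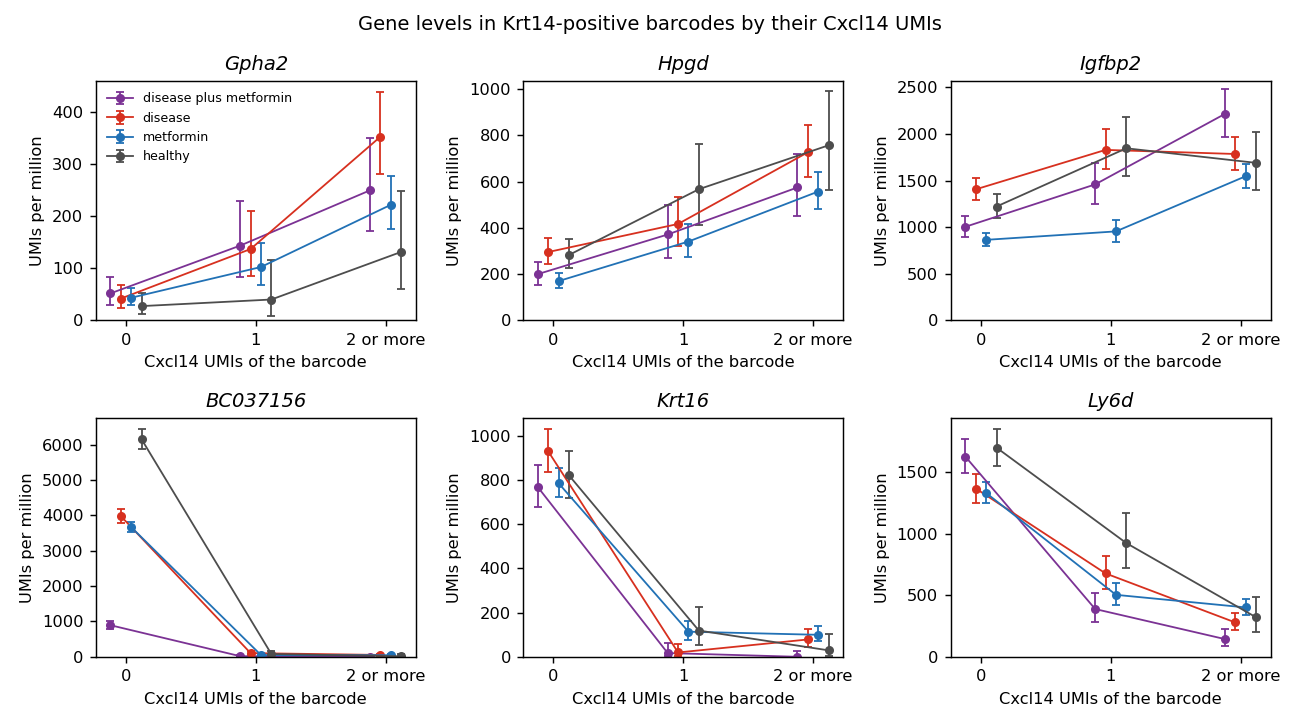
Level of 6 genes (CPM with exact 95% Poisson intervals) in Krt14-positive barcodes with 0, 1 or 2 and more Cxcl14 UMIs, 1 line per library. Gpha2 and Hpgd climb with the Cxcl14 count and Ly6d declines in all 4 libraries, while BC037156 and Krt16 stand high at 0 UMIs alone.

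Among the members themselves, the few UMIs of early differentiation keratins that the rule allows marked a further gradient for Gpha2. It was at 344 CPM in disease plus metformin members with no Krt1, Krt10 or Krt76 UMI and 17.99 CPM in those with 1 to 4, at 332 and 101 CPM in disease, 224 and 73.1 CPM in metformin, and 127 CPM and 0 UMIs in healthy gingiva. Fabp5, a fatty acid binding protein that is high in differentiating keratinocytes, ran the other way, at 1002 and 1556 CPM in disease plus metformin, 1497 and 2084 in disease, 992 and 2052 in metformin, and 1073 and 2106 CPM in healthy gingiva. These 2 sets lie inside the rule and were cut by genes of the rule.

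Variation from cell to cell was larger than counting gives for most genes. Over 284 genes with enough UMIs in every library, the variance between members was 1.48, 1.57, 1.87 and 1.66 times the counting variance at the median, in the order disease plus metformin, disease, metformin and healthy. Malat1 was at 27.9 to 236 times, and Muc5b at 3.18 times in disease and up to 82.6 times in metformin members. Mt4, a metallothionein of stratified epithelia, was at 8.75 to 11.7 times, Fabp5 at 7.66 to 10.8, Ly6d at 6.46 to 8.07 and Krt14 at 5.39 to 11.5 times. Krt5 and Igfbp2 lay lower, at 2.21 to 4.21 and 2.30 to 3.18 times. Camk1d and Cmss1 followed Gm42418, a gene that holds ribosomal RNA sequence, across members: Pearson's r of Camk1d with Gm42418 was 0.761 over 130 members, 0.829 over 193, 0.845 over 241 and 0.834 over 84. These members share a library and differ in depth, and the values are descriptions only.

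Set against keratinocytes of the keratinized suprabasal kind (at least 5 UMIs of Krt1, Krt10 and Krt76 together, 48 in disease plus metformin, 48 in disease, 61 in metformin and 52 barcodes in healthy gingiva), the basal cells had more RNA of Col17a1, Dst and Crip1 and less of Fabp5 and Selenbp1. Col17a1, the hemidesmosomal collagen XVII, stood at 207 CPM in members and 17.97 in the other set in disease plus metformin, 279 and 25.1 in disease, 167 and 43.7 in metformin, and 311 and 13.1 CPM in healthy gingiva. Crip1, a small LIM-domain protein, was at 4533 CPM in members and 1465 in the other set in disease plus metformin, 4435 and 752 in disease, 4809 and 1559 in metformin, and 2686 and 618 CPM in healthy gingiva. Fabp5 was the reverse, at 1248 CPM in members and 6892 in the other set in disease plus metformin, 1664 and 12872 in disease, 1368 and 7871 in metformin, and 1433 and 10936 CPM in healthy gingiva, and so was Selenbp1, a selenium-binding protein, at 23.9 CPM in members and 908 in the other set in disease plus metformin, 39.1 and 1329 in disease, 125 and 898 in metformin, and 62.3 and 1525 CPM in healthy gingiva. Of 929 genes measured, 36 (3.88%) were higher and 42 (4.52%) lower in members in all 4 libraries. By list, 2 of 17 hemidesmosome genes were measured, Col17a1 and Dst, and both were higher. Col17a1 reached the UMI minimum through the members, where it was high, so these 2 genes are no result on the list. Krt6a, Krt6b and Krt16 of 4 wound keratins were lower. Within 1000 to 3000 UMIs, 22 of 490 genes measured (4.49%) were higher and 33 (6.73%) lower. Crip1 was among the 22, and Fabp5, Selenbp1, Krt6a and Krt16 were among the 33. Col17a1, Dst and Krt6b were not called there, through too few UMIs or a ratio below the call.

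Set against soft-mucosa keratinocytes (at least 10 UMIs of Krt4 and Krt13 together, 50 in disease plus metformin, 96 in disease, 116 in metformin and 109 barcodes in healthy gingiva), the difference covered more genes. Of 1410 measured, 75 (5.32%) were higher and 120 (8.51%) lower in members in all 4 libraries. Apoe, which encodes a lipid-carrying protein, was at 1060 CPM in members and 112 in the other set in disease plus metformin, 1036 and 174 in disease, 876 and 255 in metformin, and 1031 and 160 CPM in healthy gingiva. Sparc, a matrix-associated glycoprotein, was at 550 CPM in members and 52.6 in the other set in disease plus metformin, 501 and 13.4 in disease, 480 and 52.9 in metformin, and 401 and 73.7 CPM in healthy gingiva. Tgm3, a transglutaminase of the cornified layer, was at 3.99 CPM in members and 434 in the other set in disease plus metformin, 15.7 and 611 in disease, 16.2 and 457 in metformin, and 20.8 and 786 CPM in healthy gingiva. Among the lists, 8 of 9 differentiation genes and 7 of 11 genes of antioxidant defence were lower in members, Nqo1, Gstm1 and Gpx2 among them, and 3 of 4 hemidesmosome genes (Col17a1, Dst and Itgb1) were higher. These were the measured genes of 22 differentiation, 18 antioxidant and 17 hemidesmosome genes. A gene could reach the UMI minimum through the set where it was high, as Tgm3 did, so these counts follow in part from that. Within 1000 to 3000 UMIs, 28 of 551 genes measured (5.08%) were higher and 50 (9.07%) lower. Apoe and Sparc were among the 28, and Nqo1, Gstm1 and Gpx2 were among the 50. Col17a1, Dst, Itgb1 and Tgm3 were not called there, through too few UMIs or a ratio below the call.

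Disease members, set against healthy members, had more RNA of Krt17, Pde4d, Mt4, Fgfbp1, Gpha2 and Crip1, and less of Nupr1, of the tubulin genes Tuba1b and Tubb5, of Cck and, by summed UMIs alone, of the basal regulator Trp63. Of 941 genes measured (at least 50 UMIs over the members of both libraries), 79 (8.4%) were at least 1.5-fold higher and 79 (8.4%) lower, with a median log2 ratio of 0.0042. Crip1, at a log2 ratio of 0.72, was below the call with every cell given equal weight, at 0.53. The counting interval of the ratio also lay beyond 1 for 44 of the higher and 53 of the lower genes. The 4 comparisons draw on the same 4 libraries, and those that share a library are given side by side.

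Pde4d, at chr13:108449948-109953461, encodes a phosphodiesterase that degrades cyclic AMP and stood at 1508 CPM in disease and 263 CPM in healthy members, 5.73-fold apart (log2 2.52, interval 2.05 to 3.03). A single healthy barcode held 57.9% of its UMIs, and without the top barcode of each library the levels were 1475 CPM in disease and 118 in healthy members. In members with both mitochondrial and Malat1 UMIs the log2 ratio was 0.96. Mt4 stood at 3052 CPM in disease and 1467 CPM in healthy members, 2.08-fold apart. Fgfbp1, a carrier that releases fibroblast growth factors from the matrix, stood at 243 CPM in disease and 76.1 in healthy members, 3.19-fold apart, and Gpha2 at 266 CPM in disease and 83.1 in healthy members, 3.20-fold apart (log2 1.68, interval 0.81 to 2.68). Eno1, the glycolytic enolase, was at 138 CPM (53 UMIs) in disease and 41.5 CPM (6 UMIs) in healthy members (log2 1.74, interval 0.52 to 3.24). Hopx, a homeodomain cofactor found in progenitor and differentiating epithelium, was at 180 CPM (69 UMIs) in disease and 69.2 CPM (10 UMIs) in healthy members (log2 1.38, interval 0.41 to 2.50). These 6 genes were named by rank among genes higher in disease with counting intervals of the ratio above 1. Their direction and intervals therefore follow from that choice.

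On the lower side, Nupr1, a stress-response nuclear protein, was at 36.5 CPM in disease and 291 CPM in healthy members, 7.96-fold apart. Over all kept barcodes it was at 2233 CPM in disease and 7575 in healthy members, above the members in both libraries. Of 4 measured gland markers, Dcpp1 and Dcpp2 were lower at a list median of -3.21, and the 16 markers together were at 1101 CPM in disease and 3274 CPM in healthy members, whose part in the Nupr1 value was not tested. Tuba1b was at 88.7 CPM in disease and 284 in healthy members (log2 -1.68, interval -2.38 to -0.99), Tubb5 at 232 CPM in disease and 436 in healthy members and Cck, the cholecystokinin precursor, at 112 CPM in disease and 298 in healthy members. Tuba1b belongs to a family of near-identical tubulin genes among which reads may be split. Of the 20 genes named by rank, 2 of the 10 higher and 2 of the 10 lower were below the level over all kept barcodes of the library where they were higher, Nupr1 and Pde4d among them.

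Of 10 measured mitochondrially encoded genes, mt-Nd1, mt-Nd3 and mt-Nd5 were lower in disease members at a list median of -0.32, but with every cell given equal weight mt-Nd3 was at 0.49 and mt-Nd5 at 0.043. Nfkbia, the 1 gene measured of the NF-kB list, was higher. Against the 8.4% in each direction, 0 of 10 measured antimicrobial and alarmin genes, 0 of 5 desmosome genes, 0 of 4 hemidesmosome genes and 0 of 4 interferon response genes were called. Among protease inhibitors, 1 of 6 was higher (Cstb, a cathepsin inhibitor, at 274 CPM in disease and 173 in healthy members) and the list's median was 0.34. Of 6 cell cycle genes outside the rule, the tubulin genes Tuba1b and Tubb5 were lower and the median was -0.49. Trp63, the master regulator of stratified epithelium, was at 175 CPM in disease and 339 CPM in healthy members, but its UMIs sat in 26 and 8 cells, and with every cell given equal weight the log2 ratio was -0.035, against -0.96 by summed UMIs. Krt17, a wound keratin whose gene lies at chr11:100256217-100261029, was at 1714 CPM in disease and 208 in healthy members, with 37.3% of the disease UMIs in 1 barcode, and at 1089 CPM in disease and 174 in healthy members without the top barcode of each.

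Inflammatory genes were scarce in these cells in every library. Of a list of 28 cytokine and chemokine genes that does not hold Cxcl14, Mif alone was measured, at 1100 CPM in disease plus metformin, 1010 in disease, 1139 in metformin and 1017 CPM in healthy members. Cxcl1, a neutrophil-attracting chemokine, had 2 UMIs in disease and 0 in the other libraries. S100a8 and S100a9, the calprotectin genes, had at most 1 UMI in any library, as had the alarmin Il33, and none of the MHC class II genes was measured. At this depth a count of 0 in the disease plus metformin members allows up to 12.0 CPM, and in the healthy members up to 20.8 CPM.

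Disease with metformin against disease without it gave lower levels of mitochondrially encoded RNA, Malat1, Ly6a, Krt17 and Trp63, and higher levels of Ubb, Ccdc34, Slc25a3, Mt3, Krt15 and gland genes. Of 1061 genes measured, 74 (6.97%) were higher and 102 (9.61%) lower in disease plus metformin members, with a median log2 ratio of 0.045. The share of higher genes among those called was 42.0%, and 58.1% when mitochondrial, ribosomal protein and gland genes were left out of the totals, where the median of all genes was 0.15.

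All 8 measured mitochondrially encoded genes were lower in disease plus metformin members, at a median log2 ratio of -1.41, while of 35 nuclear subunits of complex I, 1 was higher and none lower at a median of 0.08. By level, mt-Co2, a subunit of cytochrome c oxidase, was at 371 CPM in disease plus metformin and 1002 CPM in disease members, and mt-Cytb, a subunit of complex III, at 399 CPM in disease plus metformin and 853 in disease members. Mitochondrial RNA as a whole took 0.262% of UMIs in disease plus metformin and 0.670% in disease members, and 58.5% and 35.2% of these members had no mitochondrial UMI. In the 23 and 56 members with both mitochondrial and Malat1 UMIs the log2 ratio of mt-Co2 was -0.57, against -1.43 in all. A single barcode held 53.8% of the mt-Co2 UMIs of disease plus metformin members, and the log2 ratio without each top barcode was -2.32.

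Ubb, a polyubiquitin gene, stood at 841 CPM in disease plus metformin and 271 CPM in disease members, 3.10-fold apart (log2 1.63, interval 1.29 to 1.98). Ccdc34 was at 179 CPM in disease plus metformin and 62.6 in disease members, 2.87-fold apart, and Slc25a3, the mitochondrial phosphate carrier, at 554 CPM in disease plus metformin and 245 in disease members, 2.26-fold apart. Mt3, a metallothionein, was at 494 CPM in disease plus metformin and 232 in disease members, while Mt1 was at 1786 CPM in disease plus metformin and 1855 in disease members, Mt2 at 1025 CPM in disease plus metformin and 869 in disease members and Mt4 at 2121 CPM in disease plus metformin and 3052 in disease members. Mt3 alone of these metallothioneins differed by more than 1.5-fold. Krt15 was at 849 CPM in disease plus metformin and 511 in disease members, and in members with mitochondrial and Malat1 UMIs its log2 ratio was 0.28, below the call, against 0.73 in all. The lncRNA gene Snhg1, host of small nucleolar RNAs, was at 431 CPM in disease plus metformin and 211 in disease members.

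Ly6a, the Sca-1 antigen used as a progenitor marker in mice, stood at 271 CPM in disease plus metformin and 624 CPM in disease members, 2.30-fold lower (log2 -1.20, interval -1.61 to -0.81). Malat1 was at 1718 CPM in disease plus metformin and 5288 in disease members, and over all kept barcodes at 18262 CPM in disease plus metformin and 19408 in disease members. It had no UMI in 61.5% of disease plus metformin and 59.1% of disease members. Its log2 ratio was -1.62 by summed UMIs, -0.79 with every cell given equal weight and -2.16 without each top barcode. Vav3, a guanine nucleotide exchange factor, was at 19.9 CPM in disease plus metformin and 149 in disease members and Nfib, a transcription factor, at 75.7 CPM in disease plus metformin and 217 in disease members. Of the 10 genes named as lower, 9 were below the level over all kept barcodes of the disease library, Ly6a being the exception. Krt17 was at 538 CPM in disease plus metformin and 1714 in disease members, and at 369 CPM in disease plus metformin and 1089 in disease members without the top barcode of each library. Krt6a was at 590 CPM in disease plus metformin and 939 in disease members, so both measured wound keratins were lower. Trp63 was at 47.8 and 175 CPM in 9 and 26 cells.

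All 7 measured gland markers were higher in disease plus metformin members, at a median log2 ratio of 4.16. By rank, genes outside that marker list led the higher side, with Nupr1 at 367 CPM in disease plus metformin and 36.5 CPM in disease members, Muc5b at 3133 CPM in disease plus metformin and 712 in disease members, and Bpifb2, a secreted BPI-fold protein, at 941 CPM in disease plus metformin and 180 in disease members. All 5 of Nupr1, Bpifb2, Muc5b, Wfdc2 and Gp2 were far higher over all kept barcodes than in the members. Without the members in which gland markers took over 1% of UMIs, the log2 ratios were 0.42 for Muc5b and 0.83 for Bpifb2, against 2.14 and 2.39 in all. The part of free gland RNA in the remainder was not tested.

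**Figure D4:**
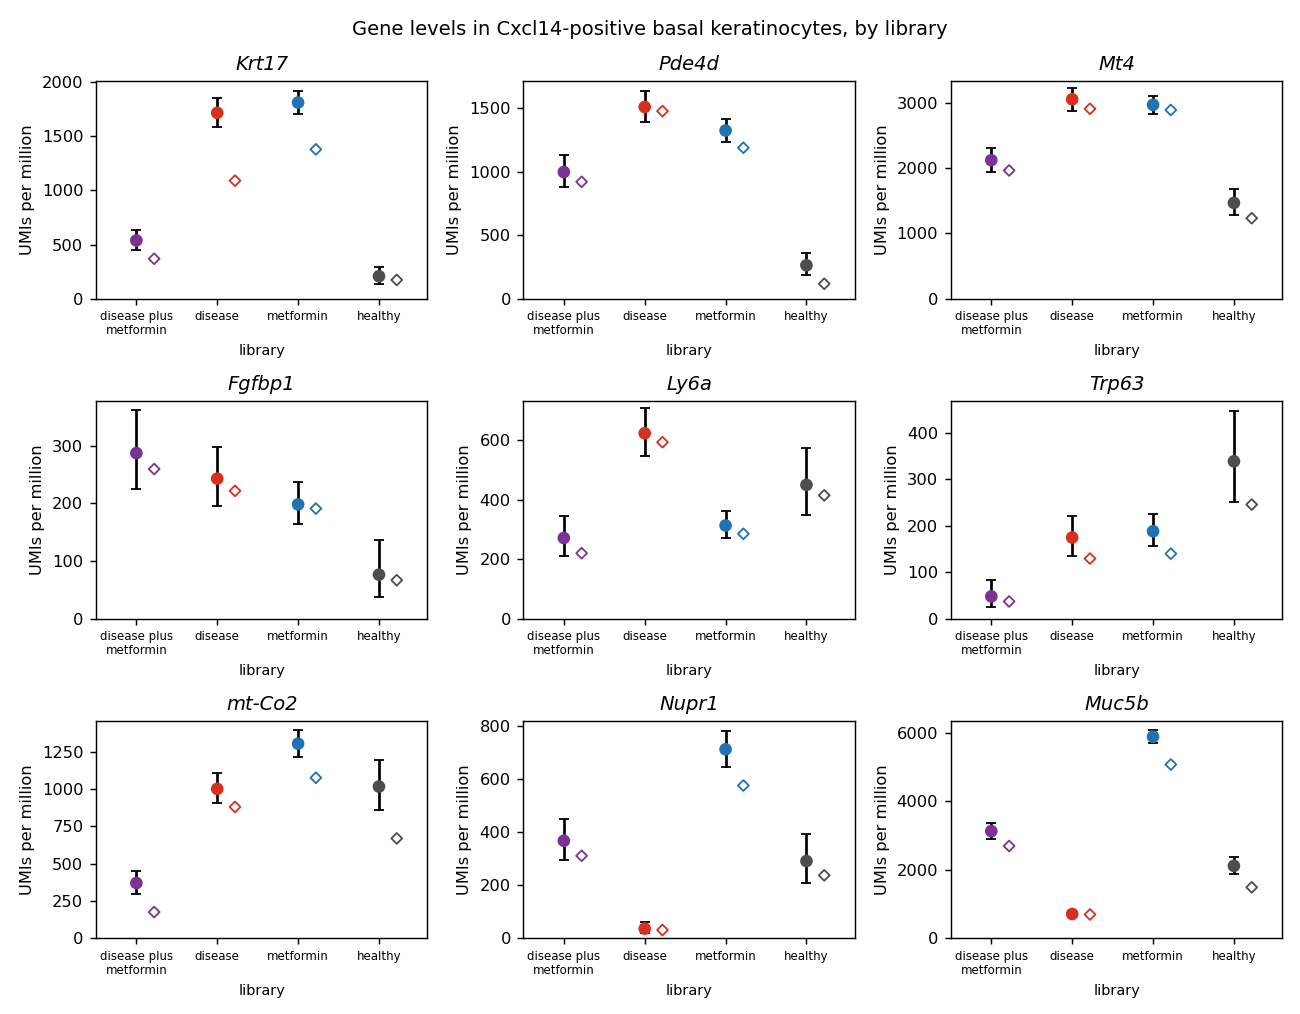
Level of 9 genes in Cxcl14-positive basal cells by library (filled circles, CPM with exact 95% Poisson intervals) and the level without the barcode that held most UMIs of that gene (open diamonds). Krt17, Pde4d, Mt4 and Fgfbp1 are lowest in the healthy library, mt-Co2 and Trp63 in the disease plus metformin library, and Nupr1 and Muc5b in the disease library.

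Metformin members had more RNA of Pde4d, Mt4, Krt17, Ubb, Fos, Jun and Ier2 than healthy members, and less of Tuba1b, Gpx2, Hmgb1 and most measured hemidesmosome genes. Of 1304 genes measured, 155 (11.9%) were higher and 120 (9.2%) lower in metformin members, with a median log2 ratio of -0.023. Pde4d was at 1323 CPM in metformin and 263 CPM in healthy members, and at 1188 CPM in metformin and 118 in healthy members without each top barcode. Its log2 ratio was 2.33, but 1.31 in members with mitochondrial and Malat1 UMIs and 1.61 in those with at least 2 Cxcl14 UMIs. Mt4 was at 2968 CPM in metformin and 1467 in healthy members, 2.02-fold apart, and Ubb at 670 CPM in metformin and 277 in healthy members, 2.42-fold apart. Krt17 was at 1810 CPM in metformin and 208 in healthy members, found in 45.2% of metformin and 21.4% of healthy members, and at 1378 CPM in metformin and 174 in healthy members without each top barcode. Each of these 4 genes was over 2-fold higher with and without its top barcode.

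Of 26 immediate-early genes, which cells switch on within minutes of stress or growth signals, 4 were measured. Fos, Jun and Ier2 were called higher in metformin members, and the median of the 4 was 1.39. These 3 reached the minimum of 50 UMIs through the metformin members, where they were high. The count and the median follow in part from that and are no result on the list. Fos had 72 UMIs in metformin members and 3 in healthy members (log2 2.49, interval 0.89 to 4.80), or 117 CPM in metformin and 20.8 in healthy members, Jun was at 118 CPM in metformin and 34.6 in healthy members, and Ier2 at 97.4 CPM in metformin and 48.5 in healthy members. Fos was found in 9.96% of metformin and 2.38% of healthy members. Nfkbia, the inhibitor of NF-kB that NF-kB itself induces, was at 159 CPM in metformin and 62.3 in healthy members.

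Of 5 measured hemidesmosome and basement membrane genes, Col17a1, Dst and Itgb1 were lower and Itga6 higher, at a median of -0.77 against -0.023 for all genes. Col17a1 was at 167 CPM in metformin and 311 CPM in healthy members, Dst, which encodes the plakin BPAG1, at 122 CPM in metformin and 208 in healthy members, and Itgb1 at 60.0 CPM in metformin and 118 in healthy members. Itga6, the integrin alpha 6 subunit, was at 128 CPM in metformin and 83.1 in healthy members. Among 4 measured epithelial transcription factors, Trp63 was at 188 CPM in metformin and 339 in healthy members and Id1 at 117 CPM in metformin and 194 in healthy members, both called lower. With every cell given equal weight the Trp63 log2 ratio was -0.00048, against -0.85 by summed UMIs, so that its call was lost. Gpx2, a glutathione peroxidase of epithelia, was at 114 CPM in metformin and 305 in healthy members (log2 -1.42, interval -1.99 to -0.84), and Hmgb1, a chromatin protein and alarmin, at 428 CPM in metformin and 761 in healthy members.

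Gland markers and other secretory genes stood higher here too. Muc5b was at 5894 CPM in metformin and 2118 CPM in healthy members, Bpifb2 at 1754 CPM in metformin and 443 in healthy members and Wfdc2 at 672 CPM in metformin and 249 in healthy members, and all 8 gland markers that were measured were higher at a median of 2.77. Without members with over 1% gland marker UMIs the direction turned: the log2 ratio was -1.16 for Muc5b, -1.06 for Bpifb2 and -0.44 for Wfdc2. Of the 10 genes named as higher, 9 were below the level over all kept barcodes of the metformin library, Pde4d being the exception, and none of the 10 named as lower was below that of the healthy library.

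Disease under metformin was compared with metformin alone as the last pair. Disease plus metformin members had less mitochondrially encoded RNA, less of Fos and of the wound keratin genes and less of Selenbp1, and more Ccdc34, Glo1, Snhg1, Hmgb1, Tspo and Gpx1. Of 1428 genes measured, 96 (6.72%) were higher and 193 (13.5%) lower, with a median log2 ratio of 0.040. All 11 measured mitochondrially encoded genes were lower at a median of -2.01, with mt-Co2 at 371 CPM in disease plus metformin and 1305 CPM in metformin members. The size of the gap depended on the members taken. For mt-Co1 the log2 ratio was -2.06 in all, but -1.27 in members with at most 10% mitochondrial UMIs. It was -1.28 in members with mitochondrial and Malat1 UMIs, and -1.07 in those with at least 10 Krt14 UMIs. The mt-Co1 gap was wider without each top barcode, at -2.92, and with at least 2 Cxcl14 UMIs, at -2.53. Of 36 nuclear complex I subunits, 4 were higher (Ndufa9, Ndufb8, Ndufc2 and Ndufs4) and 1 lower (Ndufa10), at a median of 0.16. The mitochondrial share of UMIs was 0.262% and 1.01%.

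Of 6 measured immediate-early genes, Fos, Jun, Ier2 and Btg2 were lower, with Jun at 43.9 CPM in disease plus metformin and 118 CPM in metformin members and Fos at 43.9 CPM in disease plus metformin and 117 in metformin members. Fos and Jun reached the minimum of 50 UMIs through the metformin members, so the count for the list follows in part from that. With every cell given equal weight, Jun was at a log2 ratio of -0.23, against -1.43 by summed UMIs, and Ier2 at 0.069, against -0.91, so that both calls were lost. All 3 measured wound keratins were lower: Krt16 had 2 and 65 UMIs, Krt17 was at 538 CPM in disease plus metformin and 1810 in metformin members and Krt6a at 590 CPM in disease plus metformin and 904 in metformin members. Selenbp1 was at 23.9 CPM in disease plus metformin and 125 in metformin members. Among the higher genes, Glo1, which detoxifies methylglyoxal, was at 307 CPM in disease plus metformin and 131 in metformin members, Hmgb1 at 761 CPM in disease plus metformin and 428 in metformin members, Tspo, a protein of the outer mitochondrial membrane, at 1108 CPM in disease plus metformin and 685 in metformin members, and Gpx1, the main cytosolic glutathione peroxidase, at 1383 CPM in disease plus metformin and 870 in metformin members. In members with at least 2 Cxcl14 UMIs the log2 ratio of Gpx1 was 0.39, below the call, against 0.67 in all. S100a14 was at 1013 CPM in disease plus metformin and 672 in metformin members, and with Hmgb1 made 2 of 11 antimicrobial and alarmin genes that were higher. All 10 genes named as higher stood at or above the level over all kept barcodes of the disease plus metformin library. Of the 10 named as lower, 9 were below that of the metformin library, Cdk8 being the exception, and without members with over 1% gland marker UMIs, Muc5b and Bpifb2 stood at log2 0.86 and 1.51 in place of -0.91 and -0.90.

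Basal keratins gave 0 of 3 called in disease against healthy and in disease plus metformin against metformin, and 1 of 3 (Krt15, higher) in each of the other pairs, where the Krt15 log2 ratio in metformin over healthy was 0.08 in members with mitochondrial and Malat1 UMIs, against 0.61 in all. Among cytosolic heat shock genes, Hsp90aa1 and Dnaja1 of 7 measured were lower in disease plus metformin against disease and in metformin against healthy, Dnaja1 of 8 in disease plus metformin against metformin, and none of 7 in disease against healthy. Glycolysis genes gave list medians between -0.07 and 0.11, cytosolic heat shock genes between -0.18 and 0.07, and interferon response genes between -0.09 and 0.26, against medians of all genes between -0.023 and 0.045. At most 2 glycolysis genes and 1 interferon response gene were called in any of the 4 comparisons. Of 28 genes of AMPK, mTORC1 and lipid synthesis, the pathways metformin is best known to touch, 1 was measured in disease against healthy and in disease plus metformin against disease, and 2 in the other pairs. Fdps, an enzyme of the mevalonate pathway, was at 175 CPM in disease plus metformin and 107 CPM in metformin members. Prkaa1, a catalytic subunit of AMPK, had at most 4 UMIs in any library.

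**Figure D5:**
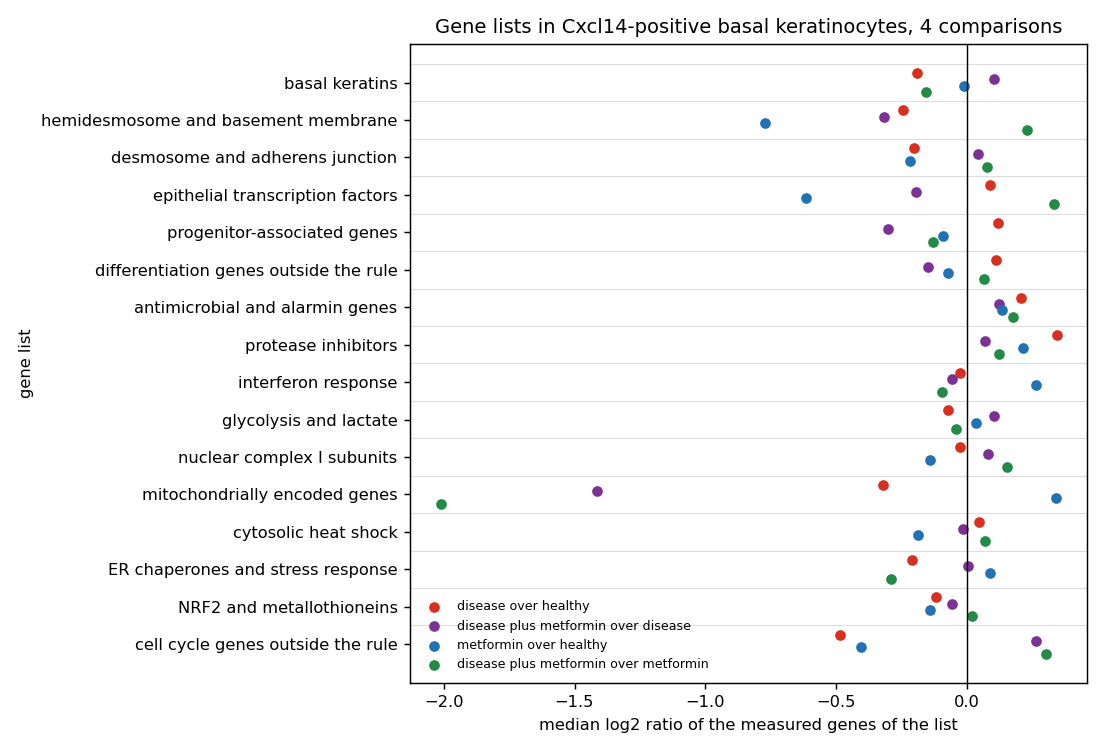
Median log2 ratio of the measured genes of 16 lists in Cxcl14-positive basal cells, 1 point for each of 4 comparisons. Mitochondrially encoded genes stand lowest in both comparisons of disease plus metformin, at -1.41 and -2.01, hemidesmosome genes lie lowest in metformin over healthy at -0.77, and most other medians lie within 0.5 of 0.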

How the data were processed

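Gingival tissue of mice was excised, broken down with collagenase and DNase, strained and loaded on the 10x droplet platform, per the labels' protocols. The deposited matrices hold raw UMI counts per gene and cell barcode, made by the authors with Cell Ranger 7.0.1, bcl2fastq and the mm10 genome, per the submitters' processing notes. There were 4 libraries, 1 per group, with totals of 12507787 to 22333858 UMIs, and no deposited barcode had fewer than 500 UMIs. No doublet caller was run, so doublets remain. Of 32285 genes, the counts of those sharing 1 of 38 symbols were summed, which left 32245 symbols.

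The members and the 29 gene lists were chosen with earlier results of these data known. Member UMIs were summed per library and divided by the members' total to give UMIs per 1000000 (CPM), so that a cell of high depth weighs more. A gene was measured with at least 50 UMIs over both libraries compared, or at least 20 over both sets of cells in every library, and called at 1.5-fold. Levels have exact Poisson intervals, shares exact Clopper-Pearson intervals and ratios conditional exact binomial intervals, all at 95%. They cover counting error only and are too narrow for genes that vary more between cells than counting gives. A count of 0 was set to a floor of 3 UMIs per library.

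Genes were named by rank, as the 10 highest and 10 lowest of each comparison by the interval bound nearest to 0, and the 8 highest and 8 lowest against each other set of keratinocytes. Such genes needed at least 10 member cells in the higher library and no barcode with over 20% of its UMIs. The rule's own genes and mitochondrial, ribosomal protein, haemoglobin, immunoglobulin, sex-linked and marker genes were left out of the ranking. The markers, the most abundant genes and up to 5 genes of each list were added, and other genes were singled out after their values were seen. Positions of 688 of 688 named genes came from the GENCODE annotation of GRCm38, and promoter windows from RefSeq on GRCm38.p6.

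The calculations ran in Python 3.11.15 with numpy 2.4.6, scipy 1.17.1, pandas 2.3.3 and matplotlib 3.10.9, and were tested on simulated data. Alternatives changed the UMI minimum, the Krt14, Cxcl14 and mitochondrial limits, the scaling and the weight of each cell. Others left out the top barcode of a gene, members rich in gland RNA or members without mitochondrial or Malat1 UMIs.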

Additional observations from a re-analysis of the deposited data

Results flagged for a closer look

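For 6 genes of the members, metformin went with a level at least 1.5-fold higher in one state of the gingiva and lower in the other. The lower level was also at least 1.5-fold apart, and both counting intervals of the ratio lay beyond 1. Genes with a smaller opposite change in either state, such as Mt4, were not counted. The differences given here are the log2 ratio of disease plus metformin over disease minus that of metformin over healthy, from 1 library each. No such difference was tested, and 897 genes were measured in both comparisons. Krt17 differed by -4.79, from log2 ratios of -1.67 in diseased and 3.12 in healthy gingiva, with 32.6% of its UMIs in 1 barcode in disease plus metformin, 37.3% in disease, 24.5% in metformin and 20% in healthy members. Pde4d differed by -2.93, with log2 ratios of -0.60 in diseased and 2.33 in healthy gingiva. Hopx differed by -2.51, with -1.10 in diseased and 1.41 in healthy gingiva. For Eno1 the difference was -2.27, with -0.79 (interval -1.61 to -0.028) in diseased and 1.47 (interval 0.28 to 2.97) in healthy gingiva. Klk8, a serine protease gene of the epidermis, differed by -1.97, with -0.82 in diseased and 1.16 in healthy gingiva. Ccdc34 ran the other way, with a difference of 2.93 from 1.52 in diseased and -1.41 in healthy gingiva.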

How the results depend on the processing

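No paired analysis was possible because each group had 1 library, and for the same reason no replicate could be left out. The depth of the members limits the calls to the more abundant genes. With a minimum of 20 UMIs, 689 genes were called in disease against healthy, 781 in disease plus metformin against disease, 1140 in metformin against healthy and 1192 in disease plus metformin against metformin, and with a minimum of 100 UMIs 44, 61, 87 and 98, where the counts reported were 158, 176, 275 and 289. In members with mitochondrial and Malat1 UMIs they were 94, 92, 174 and 175. Where the interval also had to lie beyond 1, 97 were called in disease against healthy and 152 in metformin against healthy. With at least 2 Cxcl14 UMIs the counts were 105 in disease plus metformin against disease, 175 in metformin against healthy and 149 in disease plus metformin against metformin, and without members of over 1% gland marker UMIs 184 in the last of these.

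As a share of barcodes with enough Krt14, members made up 17.7% in disease plus metformin, 19.4% in disease, 15.5% in metformin and 12.9% in healthy gingiva. Thinned to 1000 UMIs, with shallower barcodes left out, they made up 5.18%, 8.10%, 6.81% and 4.25%. Within 1000 to 3000 UMIs, 12 genes differed from Cxcl14-negative barcodes in all 4 libraries, where 55 did without that limit, and 78 from Krt4 or Krt13 barcodes, where 195 did. Without each gene's top barcode, 66.9% of calls in disease against healthy were higher and 73.0% in metformin against healthy, where 50% and 56.4% were higher with it. With mitochondrial, ribosomal protein and gland genes out of the totals, 45.6% of calls in disease plus metformin against metformin were higher, where 33.2% were with them.

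Of 1671 log2 ratios of named genes under the alternatives, 16 turned direction and 148 moved otherwise. With every cell weighted equally, the turned values were 0.31 for Rora, 0.49 for mt-Nd3 and 0.043 for mt-Nd5 in disease against healthy, 0.11 for Hsp90aa1 in disease plus metformin against disease, 0.32 for Rora in metformin against healthy and 0.069 for Ier2 in disease plus metformin against metformin. Without members of over 1% gland marker UMIs they were -1.06 for Bpifb2, -1.16 for Muc5b and -0.44 for Wfdc2 in metformin against healthy, and 1.51 for Bpifb2 and 0.86 for Muc5b in disease plus metformin against metformin. With at least 2 Cxcl14 UMIs they were -0.050 for Wfdc2 and -1.72 for mt-Atp6 in metformin against healthy. In members with mitochondrial and Malat1 UMIs they were 0.025 for Dnaja1 in metformin against healthy and -0.37 for Id3 in disease plus metformin against metformin. With at most 10% mitochondrial UMIs mt-Nd4l was at -0.14 in metformin against healthy. Of 723 medians of gene lists, 41 moved and none turned. The cause was not tested for any of these.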
